A study of Mus musculus with 32 samples.

Results

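The genes examined here are 10 members of the hepatic iron homeostasis network: Hamp, Hamp2, Tfrc, Tfr2, Slc40a1, Trf, Fth1, Ftl1, Hfe and Bmp6. They were chosen by gene symbol, as the non-control probes of the array annotated to these symbols, with earlier results of these data known. They had 14 of the 55681 probes on the array and were 10 of the 34947 gene names on it. A total of 13 of the 14 probes passed the filter on dim probes, so that all 10 genes were among the 21290 tested. Expression was measured in whole liver of male C57/BL6 mice, 8 weeks old when the diets started. Each liver sample had 1 single-colour Agilent array, and each of 8 groups held 4 separate livers. Mice ate a standard chow diet (C) or a diet lacking methionine and choline (MCD), which causes fat accumulation and inflammation of the liver, for 3 weeks. Some mice of each diet received Fc-GLP-1, a long-acting agonist of the receptor for glucagon-like peptide 1, in the last 2 weeks (C+Fc-GLP-1 on chow, M+Fc-GLP-1 on MCD). The same 4 kinds of mice were examined before partial hepatectomy (PH), the surgical removal of 70% of the liver, and 2 weeks after it, with diet and injections continued. Untreated mice received saline. The labels conflict on the injected agent. The source labels of the treated groups name Fc-GLP-1, as the methods do, but that of C+Fc-GLP-1 after PH names a dual agonist for the weeks after surgery, and the sample descriptions of all 4 treated groups speak of a dual agonist, in one group of the GLP-1 and glucagon receptors. The dose differs as well: the labels give 4.4 mg/kg/day, and the methods give 10 nmol/kg of Fc-GLP-1 every 2 days. Livers taken after PH are those of mice that survived the surgery. The paper describes the samples from before PH as liver removed in that surgery. Sample names of the untreated groups recur after PH with a time suffix. The labels do not state that these are the same mice, and the fit did not pair them.

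The liver governs body iron through hepcidin, a peptide hormone encoded by Hamp that binds the iron exporter ferroportin on enterocytes, macrophages and hepatocytes and causes its degradation. Hepatocytes raise Hamp transcription when bone morphogenetic proteins such as BMP6, secreted mostly by liver endothelial cells, signal through SMAD proteins, and when interleukin 6 signals through STAT3. HFE and transferrin receptor 2 take part in the hepatocyte's sensing of iron-loaded transferrin, transferrin receptor 1 imports it, and ferritin stores the iron inside the cell.

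Mice carry a pair of neighbouring hepcidin genes, both on the minus strand of chromosome 7. In GRCm38.p6, Hamp lies at chr7:30942368-30944029 and Hamp2 at chr7:30922372-30924181. The sequences of their probes are shown because a result on one of the genes requires that its probe be told apart from the other. Capitals mark the bases that differ when the probes are aligned without gaps.
Hamp probe (mm9, chr7:31727490-31727549, minus strand): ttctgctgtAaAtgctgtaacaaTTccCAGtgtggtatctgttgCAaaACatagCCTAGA
Hamp2 probe (mm9, chr7:31707520-31707579, minus strand): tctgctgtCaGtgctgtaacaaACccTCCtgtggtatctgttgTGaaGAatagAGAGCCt
Of 59 aligned bases, 42 were identical and 17 differed (71.2% identity), with the differences spread over the probe. Cross-hybridization between the probes was not tested.

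The 250 bases before each start site, taken from RefSeq, are shown because Bmp6 and the BMP target Id1 were higher in the same comparison as these genes. Whether these sequences play a part in the differences was not tested. Capitals mark GGCGCC or the letters at its place, a sequence known from BMP-responsive elements, and the match to TTCNNNGAA, the general letters of a STAT site.
Hamp promoter (GRCm38.p6, chr7:30944030-30944279, minus strand): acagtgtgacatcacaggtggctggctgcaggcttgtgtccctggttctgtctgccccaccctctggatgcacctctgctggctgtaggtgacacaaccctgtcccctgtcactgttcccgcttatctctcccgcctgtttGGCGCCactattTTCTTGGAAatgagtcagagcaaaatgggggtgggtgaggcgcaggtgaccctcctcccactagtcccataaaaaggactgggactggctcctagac
Hamp2 promoter (GRCm38.p6, chr7:30924182-30924431, minus strand): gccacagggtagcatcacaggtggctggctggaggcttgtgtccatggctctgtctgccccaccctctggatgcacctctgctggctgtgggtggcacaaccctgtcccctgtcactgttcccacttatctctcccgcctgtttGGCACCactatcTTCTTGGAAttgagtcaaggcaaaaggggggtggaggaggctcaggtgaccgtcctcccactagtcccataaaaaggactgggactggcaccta
GGCGCC began 109 bases before the start site of Hamp, and TTCTTGGAA 97 bases before it. In Hamp2 TTCTTGGAA stood 94 bases before the start and GGCGCC was not found in the window. Over the 31 bases from 10 bases before GGCGCC to the end of TTCTTGGAA, 29 were shared and 2 differed, namely G14A and T22C, counted from the 5′ end of that stretch with the base of Hamp first. Both strings searched, GGCGCC and TTCNNNGAA, read the same on either strand and do not overlap here. GGCGCC occurred in 11.9% and TTCNNNGAA in 8.3% of all 32851 promoters of this length, 250 bases before to 50 after a start. Promoters were at hand for 8 of the 10 members (12 promoters), and apart from the hepcidin genes the only match was GGCGCC 89 bases before 1 of the 2 start sites of Tfrc.

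Levels are given as the log2 of the processed signal minus the log2 of the 75th percentile of all probes on the same array, so that a level of 0 is the signal at that percentile. A level is comparable between arrays for 1 probe, but not between probes. The share of probes well above background ranged from 36.3% to 69.2%, and the 8 hepatocyte markers, Alb among them, were well above background on all 32 arrays. The probe representing each member was well above background on every array and never saturated, while 1 Tfr2 value, in M+Fc-GLP-1 after PH, was marked as an outlier by the scanner software and left out. The arrays were on 5 slides. C and MCD shared a slide before PH, and so did the treated groups of both diets before PH and, on another slide, after it. On each shared slide the chow arrays lay in row 1 and the MCD arrays in row 2. Diet therefore cannot be told apart from row there. C after PH and MCD after PH had a slide each and were read on another scanner. The effect of Fc-GLP-1, the effect of time and the MCD effect in untreated mice after PH therefore cannot be told apart from slide. The effect of Fc-GLP-1 after PH and that of time in untreated mice cannot be told apart from scanner either. The brightness of the arrays, taken as the 75th percentile itself, moved with the groups. It ranged from 209.4 to 395.2 in C and from 442.4 to 563.6 in MCD before PH, and from 526.7 to 692.5 in MCD and from 212.6 to 472.4 in M+Fc-GLP-1 after PH. Each result below was therefore also fitted with brightness as a covariate, an alternative chosen after the data were seen.

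In MCD livers after PH, both hepcidin genes and Bmp6 were higher with Fc-GLP-1 than without it, by 6.53-fold for Hamp, 6.41-fold for Hamp2 and 2.89-fold for Bmp6. These 3 of 10 members passed an adjusted p of 0.05 in limma, against 6.45% of all genes tested (3.7% higher), and no member fell past it. The 4 MCD livers had Hamp levels of 6.30, 6.78, 4.12 and 3.74, and the 4 M+Fc-GLP-1 livers of 8.24, 7.56, 8.23 and 7.74. The groups did not overlap, and the MCD livers spread over more than 3 log2 units while the treated ones lay close together. Hamp was higher by 2.71 on the log2 scale (SE 0.64, adjusted p = 0.011, limma), and by 2.21 to 3.22 when each array of the pair was left out in turn.

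Hamp2, the second hepcidin gene, had levels of 2.37, 2.05, 3.25 and 3.17 in MCD and of 6.11, 4.95, 5.50 and 5 in M+Fc-GLP-1 livers after PH. Every treated liver was above every untreated one. The difference was 2.68 (SE 0.46, adjusted p = 0.000898, limma). Groups that did not overlap were found for 14.2% of all genes in this comparison.

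With brightness as a covariate the Hamp difference became 1.88 (SE 0.78, adjusted p = 0.198), whereas that of Hamp2 was 2.39 (SE 0.58, adjusted p = 0.022). Hamp also missed the threshold after normexp background correction and quantile normalization (2.20, adjusted p = 0.0686) and on the values the authors normalized (2.09, adjusted p = 0.0712). Across all 32 arrays the Hamp level had a Pearson r of -0.65 with the log2 brightness, and of -0.32 once group means were removed. For Hamp2 these were -0.57 and -0.16.

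**Figure D1:**
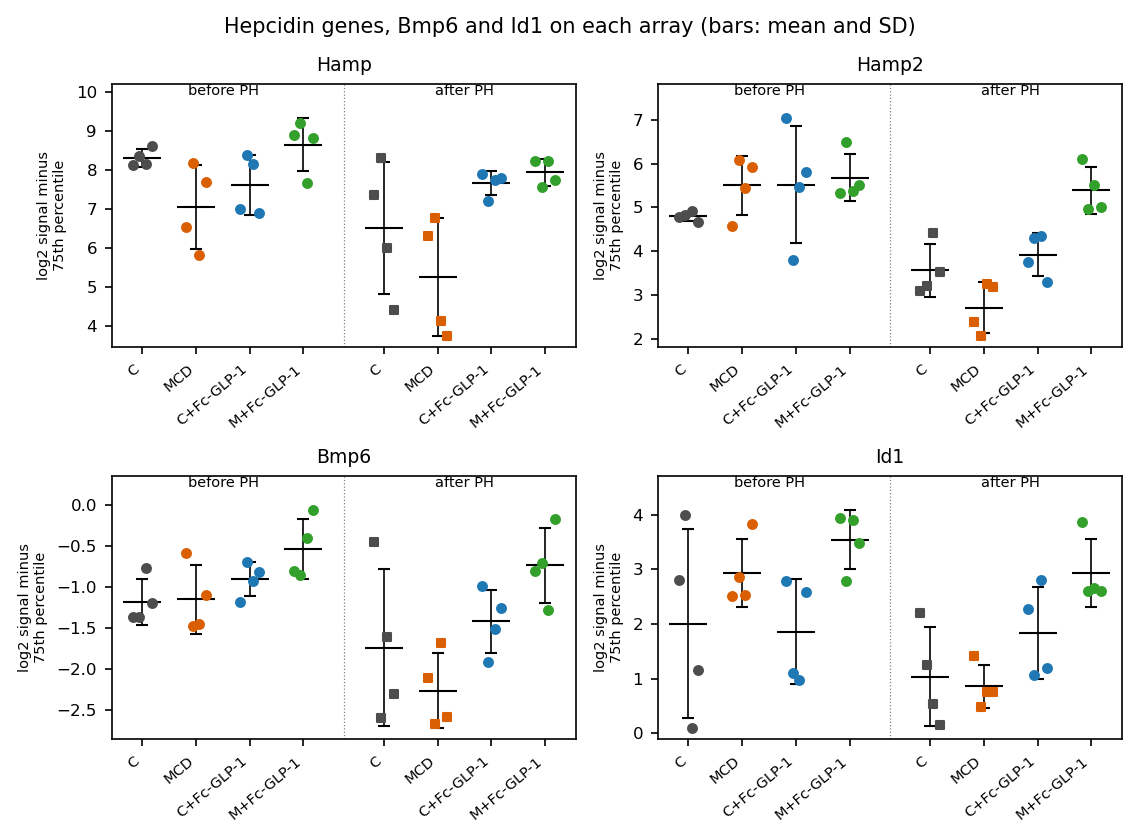
Level of Hamp, Hamp2, Bmp6 and Id1 (vertical axis) in each of the 32 liver samples by group. The level is the log2 of the processed signal minus the array's 75th percentile. Bars give the mean and SD of 4 livers, and squares mark arrays read on the other scanner. The MCD livers after PH hold the lowest mean of all groups for Hamp, Hamp2 and Bmp6 (5.24, 2.71 and -2.27).

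Bmp6, the ligand that acts upstream of hepcidin, had levels of -2.11, -2.68, -1.68 and -2.59 in MCD and of -0.80, -0.71, -1.28 and -0.16 in M+Fc-GLP-1 livers after PH. The groups again did not overlap. The difference was 1.53 (SE 0.34, adjusted p = 0.00703), or 1.69 (adjusted p = 0.0298) with brightness as a covariate. After normexp and quantile normalization it was 0.99 (adjusted p = 0.0115). It stayed past the threshold without any 1 of the 8 arrays (adjusted p from 0.00634 to 0.0327). Of 9 markers of liver endothelium, 1 fell and none rose in the same comparison. Their summed level ranged from 67.7 to 113 in MCD and from 51.5 to 74.8 in M+Fc-GLP-1 livers. A summed level adds linear signals, not log2 values, in units of the array's 75th percentile. The brightest probes therefore weigh most in it. Here as throughout, fewer cells of a type and less RNA per cell cannot be told apart in whole liver.

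Id1, a transcription factor gene that responds to BMP-SMAD signaling together with Hamp, had levels of 1.42, 0.49, 0.76 and 0.76 in MCD and 3.86, 2.61, 2.66 and 2.60 in M+Fc-GLP-1 livers after PH. All treated livers were above all untreated ones. The difference was 2.08 (SE 0.60, adjusted p = 0.036), and it passed the threshold in 5 of 16 alternatives (2.22, adjusted p = 0.107, with brightness as a covariate). Id4, of the same gene family, was higher by 1.47 (adjusted p = 0.0245). These were 2 of the 7 BMP-SMAD target genes tested, none of which fell, and their median difference was 0.85 against 0.05 over all genes. Smad7, an inhibitory SMAD induced by the pathway, passed in none of the 12 comparisons of groups (differences from -1 to 0.85), and Smad6 passed only for MCD against C before PH (0.89, adjusted p = 0.00922). None of the 16 genes listed for BMP-SMAD control of hepcidin passed in this comparison. Among them, Tmprss6, the protease that dampens the pathway, passed in none of the 12 comparisons (-0.57 to 0.58).

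Genes of the acute phase response are induced by interleukin 6, as hepcidin is. Of 15 tested in MCD livers after PH, 3 fell with Fc-GLP-1 and 1 rose: Saa2 fell by 3.43, Saa1 by 3.00 and Saa3 by 2.47 on the log2 scale. Ltf, the iron-binding lactoferrin of neutrophil granules, fell by 5.17 (adjusted p = 0.00245), and Steap4, an iron reductase, fell by 1.60. Of 7 neutrophil markers 6 fell and none rose, with summed levels of 54.8 to 181 in MCD and 9.39 to 44.2 in M+Fc-GLP-1, and 3 of 9 macrophage markers fell (224 to 496 against 178 to 251). Of 8 markers of hepatocytes, the cells that make hepcidin, 1 rose and none fell, with a median of 0.41 against 0.05 over all genes and summed levels of 4060 to 4430 in MCD and 4300 to 6990 in M+Fc-GLP-1. The median of the 283 genes with a mean level over 8 was 0.46 in this comparison. After normexp and quantile normalization it was -0.05. Hamp and Hamp2, with mean levels of 7.37 and 4.63 over the 32 arrays, are not among these genes. For the 3025 genes with a mean level of 4 to 8 the medians were 0.16 and -0.04. The part of these cell types in the hepcidin result was not tested. Socs3, a feedback inhibitor induced by STAT3, did not pass in any of the 12 comparisons (-0.92 to 0.64). Of 12 tested genes listed for control of hepcidin by interleukin 6 and activin, none passed for M+Fc-GLP-1 against MCD after PH. Their median was -0.21 against 0.05 over all genes. Among them, Il6ra, the interleukin 6 receptor gene, had a mean level of 4.6 in MCD and 5.44 in M+Fc-GLP-1 livers after PH.

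Over time, untreated MCD livers were lower in Hamp2 and Bmp6 after PH than before it. These 2 of 10 members passed, against 9.33% of all genes (3.18% lower). Hamp2 had levels of 4.57, 6.07, 5.43 and 5.92 before PH, all above those after it. It fell by 2.79 on the log2 scale (SE 0.46, 6.91-fold, adjusted p = 0.000328) and kept the call in every alternative run, including brightness as a covariate (-2.72, adjusted p = 0.000458). Bmp6 levels before PH were -0.58, -1.47, -1.45 and -1.09, again all above those after it, and 19.2% of all genes likewise did not overlap. Bmp6 fell by 1.12 (SE 0.34, adjusted p = 0.0354; -1.16, adjusted p = 0.0323, with brightness). After normexp and quantile normalization it was -0.64 (adjusted p = 0.0955), and the call was also missed with median centring (-1.21, adjusted p = 0.0504) and without the filter on dim probes (adjusted p = 0.06). The Bmp6 call was lost without replicate 1 or 4 of the MCD livers before PH or without replicate 1, 2 or 4 after PH (adjusted p from 0.0255 to 0.121 over the 8 arrays left out in turn). Hamp levels before PH were 6.54, 8.19, 5.82 and 7.69 and overlapped those after it. The Hamp difference of -1.83 missed the threshold (adjusted p = 0.0716), which it passed without replicate 3 before PH or replicate 2 after PH (lowest adjusted p 0.0296).

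Target genes of BMP-SMAD signaling and acute phase genes were read in the same comparison. Of the 7 target genes 3 fell and none rose from before to after PH in MCD livers, with a median of -1 against -0.03 over all genes. Id1 fell by 2.08 (adjusted p = 0.0263) and Id4 by 1.57 (adjusted p = 0.0111). Of the 15 acute phase genes 8 rose and none fell, with a median of 1.26. Saa2 rose by 2.89, Saa1 by 2.50, Lbp, which presents bacterial lipopolysaccharide to its receptor, by 1.91 and Saa3 by 1.86. Ltf rose by 4.12, ceruloplasmin (Cp), the ferroxidase of plasma, by 1.13 (adjusted p = 0.00135) and Stat3 itself by 0.78 (adjusted p = 0.0268). Of the 7 neutrophil markers 5 rose in the same comparison.

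In the other groups the hepcidin genes did not change past the threshold between the time points. In C livers no member passed in limma, against 13.8% of all genes, and 4 members had an unadjusted p under 0.05. Hamp levels in C were 8.13, 8.35, 8.16 and 8.62 before and 7.37, 8.30, 5.99 and 4.41 after PH, 2 livers being well below the rest. Their difference was -1.80 (adjusted p = 0.0594; 0.0171 without replicate 2 after PH), and -0.71 (adjusted p = 0.726) with brightness as a covariate. Hamp2 levels in C were 4.78, 4.82, 4.92 and 4.66 before and 3.09, 3.21, 4.42 and 3.52 after PH. These groups did not overlap, as was true of 17.9% of all genes, and the difference was -1.23 (adjusted p = 0.0703; 0.0361 without replicate 3 after PH). Bmp6 in C passed only without replicate 1 after PH (adjusted p = 0.0441). In C+Fc-GLP-1 livers no member passed, against 0.831% of all genes, and 1 had an unadjusted p under 0.05. This was Hamp2, at -1.60 (adjusted p = 0.0909; 0.0179 without replicate 2 before PH), whose levels before PH were 7.03, 3.79, 5.47 and 5.81 and those after it 3.74, 4.30, 4.34 and 3.30. In M+Fc-GLP-1 livers no member passed (1.71% of all genes), none had an unadjusted p under 0.05, and the differences of Hamp and Hamp2 were -0.70 and -0.29.

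Between the treated groups after PH, which shared a slide, Hamp2 was the only member past the threshold for M+Fc-GLP-1 against C+Fc-GLP-1, where 12.8% of all genes passed (6.19% higher). It was higher by 1.47 (SE 0.46, 2.77-fold, adjusted p = 0.0329), and 1.40 (adjusted p = 0.0479) with brightness as a covariate. The groups did not overlap, as held for 16.6% of all genes. The call was lost without replicate 1 or 4 of C+Fc-GLP-1 or replicate 1 or 3 of M+Fc-GLP-1 (adjusted p from 0.0358 to 0.118 over all 8 arrays left out in turn). Hamp, with levels of 7.89, 7.20, 7.75 and 7.80 in C+Fc-GLP-1, overlapped M+Fc-GLP-1 and differed by 0.28. Slc40a1 (0.66, adjusted p = 0.153) and Hfe (-0.34, adjusted p = 0.349) did not overlap between these groups either, but missed the threshold. Il6ra, the interleukin 6 receptor, was higher by 1.53 and Steap3, the endosomal iron reductase, by 0.98. Alas1, the rate-limiting enzyme of heme synthesis in the liver, was higher by 3.18, and Apcs, the pentraxin serum amyloid P, by 2.64, while Saa2 fell by 3.50, Saa1 by 3.07 and Bmp7 by 2.81.

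Before PH, the MCD diet alone moved 4 of the 10 members, against 26.3% of all genes (10.9% higher and 15.4% lower), in a comparison made on 1 slide. Tfrc and Hfe were higher, and Tfr2 and Ftl1 lower, in MCD than in C livers. Tfrc, which encodes transferrin receptor 1, had levels of -1.06, -1.12, 0.12 and 0.02 in C and of 1.13, 0.56, 1.32 and 0.35 in MCD livers. The groups did not overlap, as was true of 28.3% of all genes. Tfrc was higher by 1.35 (SE 0.33, 2.55-fold, adjusted p = 0.0034), with the same value and an adjusted p of 0.0386 once brightness was a covariate, and it kept the call without each array in turn (0.00201 to 0.0182). A second, dimmer Tfrc probe gave 0.98 (adjusted p = 0.149).

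Hfe, an MHC class I-like protein that binds transferrin receptor 1, had levels of 2.33, 2.16, 2.81 and 3.02 in C and of 3.21, 3.29, 3.43 and 3.45 in MCD livers. All MCD livers were above all C livers, by 0.76 on average (SE 0.21, 1.70-fold, adjusted p = 0.00952; 0.96, adjusted p = 0.0188, with brightness). After normexp and quantile normalization the difference was 0.49 (adjusted p = 0.175), and 0.48 (adjusted p = 0.19) on the values the authors normalized.

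Tfr2 levels were 6.78, 7.26, 7.20 and 7.21 in C and 6.18, 6.17, 6.64 and 6.69 in MCD livers. They did not overlap, and Tfr2 fell by 0.69 (SE 0.26, 1.62-fold, adjusted p = 0.0474). The call was lost without C replicate 2, 3 or 4 or MCD replicate 1, 2 or 3 (adjusted p from 0.0397 to 0.12 over all 8 arrays left out in turn), and with brightness as a covariate the difference was -0.21 (adjusted p = 0.693). Slc40a1, which encodes ferroportin, had levels of 4.13, 4.17, 3.84 and 3.81 in C and of 4.67, 4.10, 5.13 and 5.15 in MCD livers, where 1 MCD liver lay within the C range. Its difference of 0.78 missed the threshold (adjusted p = 0.0508), and passed it without MCD replicate 2 (0.0195). With brightness as a covariate it was 0.33 (adjusted p = 0.583) and after normexp and quantile normalization 0.43 (adjusted p = 0.37), while with median centring it was 1.14 and past the threshold. Hamp differed by -1.25 with overlapping groups (adjusted p = 0.151).

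Liver composition markers moved in the same comparison. Of 9 macrophage markers 7 rose (summed levels of 59.9 to 110 in C and 125 to 353 in MCD), as did 6 of 7 proliferation, 3 of 7 neutrophil and 3 of 7 stellate cell markers. Of 8 hepatocyte markers 3 fell (5100 to 7580 against 3610 to 4150), and 2 of 7 erythroid markers fell. Tfrc is known to be high in dividing cells, and Slc40a1 in macrophages. The part of these cell types in the members' differences was not tested.

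**Figure D2:**
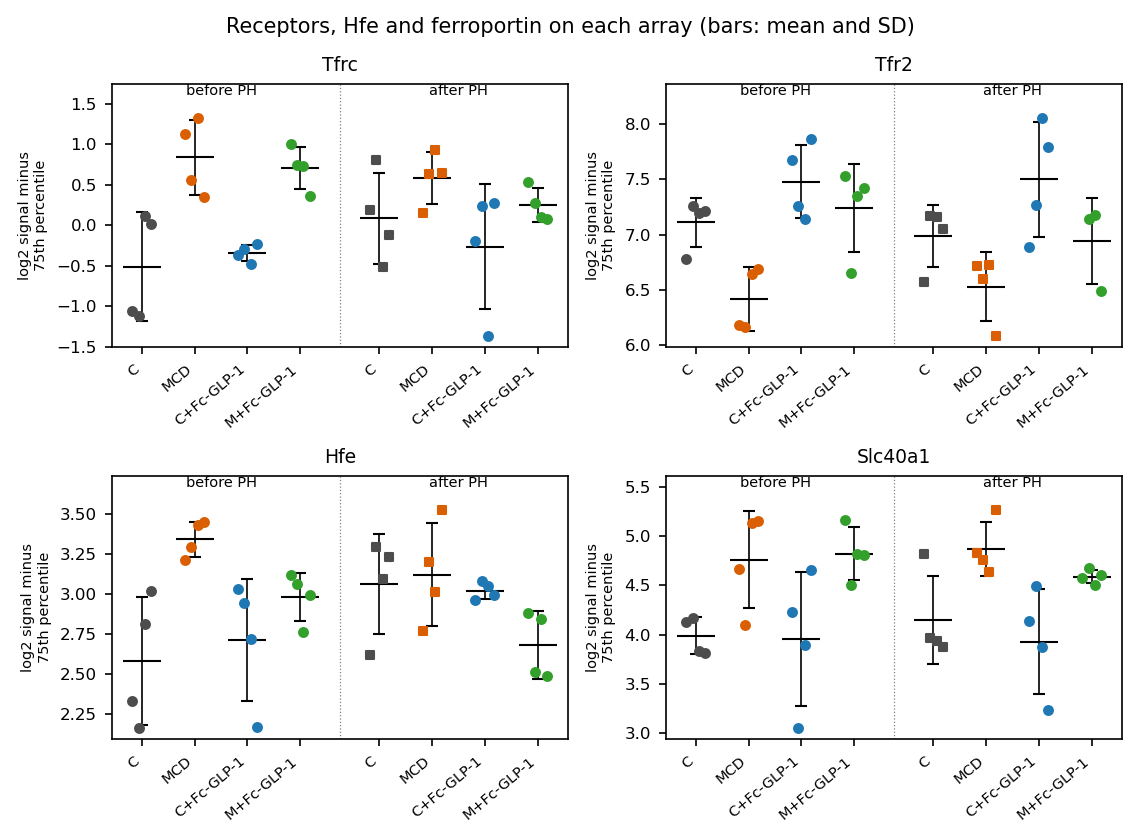
Level of Tfrc, Tfr2, Hfe and Slc40a1 (log2 of the processed signal minus the array's 75th percentile, vertical axis) in each liver by group, with the mean and SD of 4 livers (3 for Tfr2 in M+Fc-GLP-1 after PH) as bars and squares for arrays read on the other scanner. Tfrc is highest in MCD before PH (mean 0.84) and lowest in C before PH (-0.51), and the group ranges of Slc40a1 overlap between neighbours.

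The diet difference in Tfrc was also present in treated mice before PH, on a slide of their own. Tfrc levels were -0.37, -0.29, -0.47 and -0.23 in C+Fc-GLP-1 and 1.00, 0.75, 0.73 and 0.36 in M+Fc-GLP-1 livers, with no overlap (15.5% of all genes). Tfrc was the only member past the threshold, against 10.4% of all genes (5.37% higher), and was higher by 1.05 (SE 0.33, 2.08-fold, adjusted p = 0.0379). The call was lost without any 1 of the 4 C+Fc-GLP-1 arrays and without M+Fc-GLP-1 replicate 1, 2 or 3 (adjusted p from 0.0428 to 0.096 over the 8 arrays left out in turn). With brightness as a covariate it was 1.05 (adjusted p = 0.0502), and the second probe gave 1.29 (adjusted p = 0.0995). Slc40a1 differed by 0.87 (adjusted p = 0.0579), and passed without C+Fc-GLP-1 replicate 4 or M+Fc-GLP-1 replicate 2 (lowest adjusted p 0.0209).

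After PH no member passed for MCD against C in limma, against 12.2% of all genes, and 1, Slc40a1, had an unadjusted p under 0.05. Slc40a1 levels were 4.82, 3.97, 3.94 and 3.88 in C and 4.83, 4.76, 4.64 and 5.26 in MCD livers, so that the highest C liver lay among the MCD livers. The difference was 0.72 (adjusted p = 0.113; 0.0352 without C replicate 1). Hamp differed by -1.28 (adjusted p = 0.211; 0.0421 without C replicate 4).

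Ferritin and transferrin, the storage and transport proteins of iron, were among the brightest probes. Ftl1, the ferritin light chain, had levels of 9.44, 8.22, 9.78 and 9.44 in C, 8.05, 9.05, 8.81 and 7.70 in MCD and 9.33, 9.59, 8.86 and 9.76 in M+Fc-GLP-1 livers before PH. C and MCD overlapped, 1 C liver, at 8.22, lying within the MCD range. Ftl1 fell by 0.82 in MCD against C (SE 0.30, 1.76-fold, adjusted p = 0.0419), and was higher by 0.98 in M+Fc-GLP-1 against MCD (SE 0.30, 1.98-fold, adjusted p = 0.0428). In the latter comparison it was the only member past the threshold, against 7.21% of all genes (4.42% higher). The first call was lost without C replicate 1, 3 or 4 or MCD replicate 1 or 4 (adjusted p from 0.00392, without C replicate 2, to 0.175 over all 8), and the second without MCD replicate 1 or 4 or M+Fc-GLP-1 replicate 1, 2 or 4 (0.0264 to 0.147 over all 8).

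A second Ftl1 probe gave -0.26 (adjusted p = 0.464) and 0.13 (adjusted p = 0.802) in these comparisons, so that the probes disagreed. With brightness as a covariate the first probe gave -0.27 (adjusted p = 0.642) and 0.44 (adjusted p = 0.568). The median of the 283 genes whose mean level was over 8 was -0.34 for MCD against C and 0.33 for M+Fc-GLP-1 against MCD before PH, and 0.08 and -0.02 after normexp and quantile normalization. Ftl1 and Trf had the sign of these medians in both comparisons on the reported scale, whereas Fth1, also in this class, differed by 0.10 and 0.16.

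After PH, Ftl1 levels were 8.94, 8.55, 8.77 and 8.85 in MCD and 10.24, 9.77, 9.72 and 9.09 in M+Fc-GLP-1 livers, without overlap. The difference of 0.93 missed the threshold (adjusted p = 0.0567) and passed it without M+Fc-GLP-1 replicate 4 (0.0308), and the second probe gave 0.66 (adjusted p = 0.108). Trf, encoding transferrin, differed by -0.77 (adjusted p = 0.0725) for MCD against C and by 0.93 (adjusted p = 0.0703; 0.0316 without M+Fc-GLP-1 replicate 1) for M+Fc-GLP-1 against MCD before PH. Its second probe gave -0.55 (adjusted p = 0.0572) and 0.67 (adjusted p = 0.0579). Fth1, the ferritin heavy chain, did not pass in any of the 12 comparisons of groups, and its differences lay between -0.43 and 0.42.

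**Figure D3:**
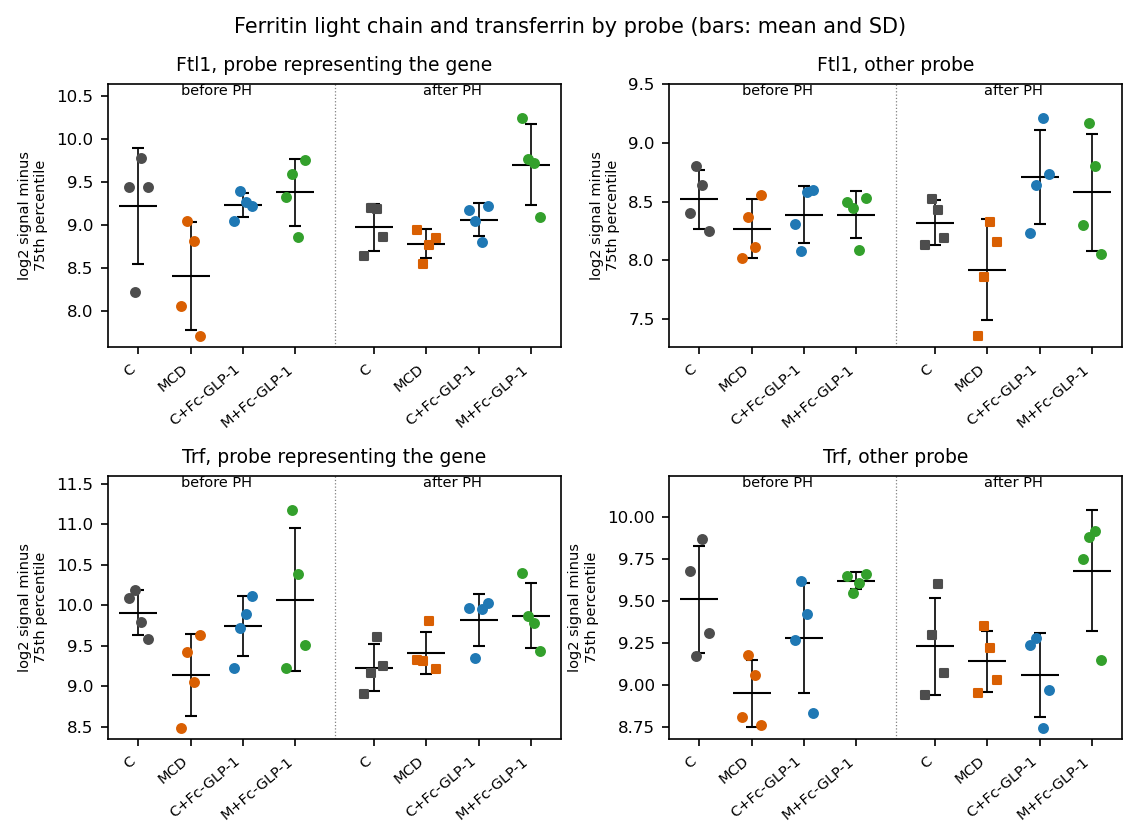
Level of both probes of Ftl1 and both probes of Trf (log2 of the processed signal minus the array's 75th percentile, vertical axis) in each liver by group, with the mean and SD of 4 livers as bars and squares for arrays read on the other scanner. For MCD against C before PH the first Ftl1 probe differs by -0.82 and the second by -0.26.

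Fc-GLP-1 in chow-fed mice moved no member past the threshold in limma, either before PH (2.08% of all genes passed) or after it (2.05%), and no member had an unadjusted p under 0.05. Hamp differed by -0.71 before and by 1.15 (adjusted p = 0.429) after PH. Slc40a1 differed by -0.03 before PH, but by -1.12 (adjusted p = 0.0266) after normexp and quantile normalization and by -1.06 (adjusted p = 0.0452) on the values the authors normalized. The processed signal of the Slc40a1 spot was 0.699 to 1.1 times its mean signal on the C arrays and 1.32 to 2.03 times on the C+Fc-GLP-1 arrays, and the part of this in the result was not tested. The difference was 0.27 with median centring and 0.10 with brightness as a covariate. In MCD livers before PH, besides Ftl1, Fc-GLP-1 gave differences of 0.82 in Tfr2 (adjusted p = 0.052; 0.0198 without M+Fc-GLP-1 replicate 2; 0.34, adjusted p = 0.646, with brightness) and of 1.59 in Hamp (adjusted p = 0.127). Hfe did not overlap between these groups, as held for 16.3% of all genes, but its difference of -0.36 missed the threshold and was 0.18 after normexp and quantile normalization. The Hamp levels of M+Fc-GLP-1 livers before PH were 8.90, 9.20, 7.66 and 8.82, the highest group mean of the series at 8.65.

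Whether the effect of Fc-GLP-1 before PH differed between the diets was tested with an interaction term, in which an additive slide difference cancels. No member passed in limma (6.13% of all genes), while 3 had an unadjusted p under 0.05. The Hamp difference was 2.29 (SE 0.91, adjusted p = 0.124), and Ftl1 passed only without C replicate 2 (adjusted p = 0.046). For the difference in time effect between the treated groups no member passed (0.0939% of all genes) and none had an unadjusted p under 0.05; Hamp2 had 1.32 (SE 0.65, adjusted p = 0.524). Whether the Fc-GLP-1 difference of the hepcidin genes in MCD livers changed with PH was not tested, since that contrast would span 4 slides and both scanners.

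**Figure D4:**
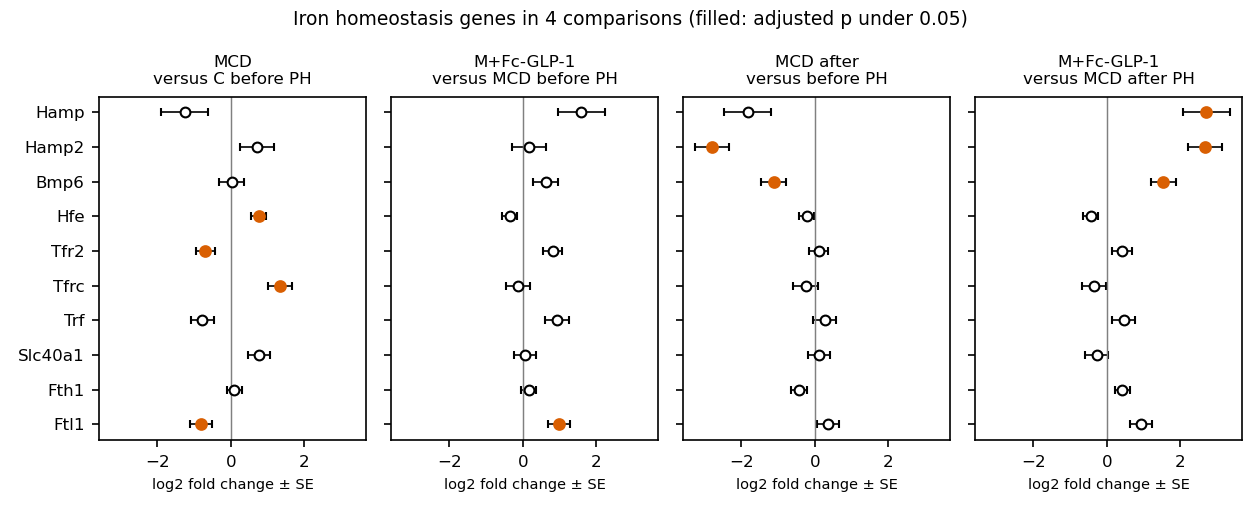
Difference in level (log2, horizontal axis) with its SE for the 10 members in 4 comparisons: MCD against C before PH, M+Fc-GLP-1 against MCD before and after PH, and MCD after against before PH. Filled points passed an adjusted p of 0.05 (limma); Hamp2 lies at 2.68 for M+Fc-GLP-1 against MCD after PH and at -2.79 for MCD after against before PH.

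**Figure D5:**
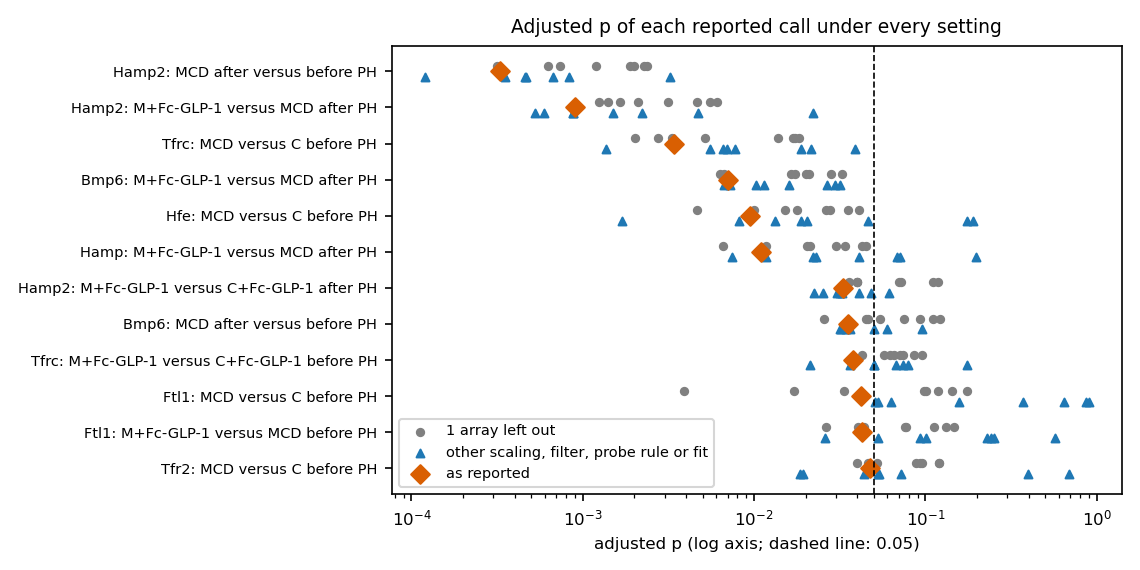
Adjusted p (log axis) of each member's difference that passed the threshold, under the reported fit and under every alternative run, 1 line per result. Hamp2 for MCD after against before PH, Hamp2 and Bmp6 for M+Fc-GLP-1 against MCD after PH and Tfrc for MCD against C before PH stay below 0.05 throughout, and the other results have points on both sides.

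Across the 8 groups the order of levels differed between members. Hamp ran from M+Fc-GLP-1 before PH (8.65) and C before PH (8.31) down to C after PH (6.52) and MCD after PH (5.24), and every pair of neighbours in that order overlapped. Hamp2 was highest in M+Fc-GLP-1 before PH (5.68) and lowest in MCD after PH (2.71), and C before PH (4.79) was separated from its neighbours M+Fc-GLP-1 after PH (5.39) and C+Fc-GLP-1 after PH (3.92). Bmp6 ran from -0.53 in M+Fc-GLP-1 before PH to -2.27 in MCD after PH with all neighbours overlapping, as was the case for Tfrc, Tfr2, Slc40a1, Trf, Ftl1 and Hfe. The 32 arrays share slides and brightness, so correlations are given as description only. Among the members the highest were 0.59 for Hamp2 and Fth1, 0.56 for Hamp2 and Bmp6, 0.54 for Tfrc and Hfe, 0.53 for Hamp and Bmp6 and 0.52 for Tfrc and Slc40a1, while Hamp and Hamp2 had 0.44. Among the genes whose pattern was most like that of Hamp over the 32 arrays were Cldn5, Mypn, Ramp2 and Depp1 (r = 0.71 each). For Tfrc they were Ccnd1, the cyclin D1 gene (0.77), Trdmt1 (0.75), Wdr41 and Lipo3 (0.74 each) and a probe with no gene name (0.73).

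Of 99 other iron genes listed, 91 were tested. The acute phase genes Apcs, Saa1, Saa2, Orm1 and Orm2 are named beside them here and below. They are not among the 99 and not in the counts. For MCD against C before PH 13 rose and 9 fell, with a median of 0.09 against -0.12 over all genes, of which 26.3% passed. In the other comparisons before PH, in the order below, 7.21%, 10.4% and 2.08% of all genes passed. Lcn2, the siderophore-binding lipocalin, rose by 5.08 (adjusted p = 9.27e-05), Slc11a1, the macrophage iron transporter, by 2.11, Hmox1, which degrades heme, by 1.30 (adjusted p = 0.0257), and Epor, the erythropoietin receptor, by 1.30. Apcs rose by 3.76 and Bmp2, another hepcidin-inducing ligand, by 0.93, while Bmp7 fell by 2.42, Steap3 by 0.94 and Aco1, the iron regulatory protein 1 gene, by 1.24 (adjusted p = 0.000606). For M+Fc-GLP-1 against MCD before PH 3 rose and 3 fell: Lcn2 fell by 4.16 (adjusted p = 0.00523), Il1b, an inflammatory cytokine gene, by 2.66 and Slc11a1 by 2.41, while Il6ra rose by 1.28 and Aco1 by 0.96. The acute phase gene Saa2 differed by -2.3 and Saa1 by -2.15. For M+Fc-GLP-1 against C+Fc-GLP-1 before PH 3 rose and 7 fell; Il6ra rose by 1.67, Flvcr2, a transporter once described as a heme importer, by 2.26 and Apcs by 2.17, while Saa1 differed by -3.49, Saa2 by -3.39 and Il1b by -2.61. For C+Fc-GLP-1 against C before PH 3 rose and 1 fell. Hjv, the BMP co-receptor hemojuvelin, rose by 1.25 (adjusted p = 0.0442), Acvr1, a BMP type I receptor, by 1.03 and Ncoa4, the ferritinophagy receptor, by 0.79, while Iscu, the scaffold for iron-sulphur clusters, fell by 1.11, and Apcs rose by 1.41.

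After PH 8 of these genes rose and 5 fell for MCD against C, where 12.2% of all genes passed. Ltf rose by 3.34, Lcn2 by 3.21, Bmp2 by 1.27 and Slc39a14, an importer of iron not bound to transferrin, by 1.13 (adjusted p = 0.00544), while Bmp7 fell by 3.21 and Id3 by 1.69, and Apcs rose by 2.99. For C+Fc-GLP-1 against C after PH 1 rose, Bmp2 by 1.04, and 1 fell, Steap2 by 1.46 (2.05% of all genes passed). For M+Fc-GLP-1 against MCD after PH 4 rose and 2 fell (6.45% of all genes passed), with a median of 0.07 against 0.05 over all genes. For M+Fc-GLP-1 against C+Fc-GLP-1 8 rose and 7 fell (12.8% of all genes). Over time 6 rose and 6 fell in C, 5 and 8 in MCD, none in C+Fc-GLP-1 and 1 and 3 in M+Fc-GLP-1 livers. Of all genes 13.8%, 9.33%, 0.831% and 1.71% passed over time, in the same order of groups. In C livers Lcn2 rose by 4.36 and Il6, the interleukin 6 gene, by 2.7, while Gdf15, a stress cytokine, fell by 2.35, and the acute phase genes Saa2 and Saa1 rose by 3.59 and 3.02. In M+Fc-GLP-1 livers Lcn2 rose by 5.33, Gdf15 fell by 2.26, Epas1, which encodes a hypoxia-inducible factor, by 1.33 and Bmp4 by 1.22, and the acute phase genes Orm1 and Orm2 rose by 1.82 and 1.80. In the diet by Fc-GLP-1 interaction, where 6.13% of all genes passed, 3 were positive and 4 negative. Among them were Lcn2 at -5.65, Il1b at -3.42, Slc11a1 at -3.25, Il6ra at 1.81, Aco1 at 1.43 and Steap3 at 1.29. Saa2 and Saa1 had -3.7 and -3.6. The plasma proteins haptoglobin (Hp) and hemopexin (Hpx), which bind hemoglobin and heme, passed in none of the 12 comparisons of groups, with differences from -0.31 to 0.71 and from -0.46 to 0.52.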

How the data were processed

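RNA of 32 mouse liver samples was hybridized to Agilent 8x60K mouse arrays in 1 colour (Cy3). Per the file headers, spots were read with Feature Extraction 10.7.3.1 against mm9. The processed signal used is a linear intensity that the authors deposited for each array, already corrected for background by that software. The authors also deposited log2 values normalized over the arrays of each time point separately, for which the notes name limma, and these were used as an alternative only. For each array the log2 of the intensity minus that of the 75th percentile was taken. Of 62976 spots 59305 were not controls and held 55681 probes. Replicate spots were averaged, flagged outliers set missing (426 probes with at least 1), and 29302 probes kept that every array of some group showed well above background. Names came from the files, updated through RefSeq accessions for 27656 probes, and each gene was represented by its brightest probe. All 21290 genes were fitted over 8 groups of 4 with limma 3.58.1 in R 4.3.3, and p-values were adjusted by Benjamini-Hochberg over all of them for each of 14 comparisons, with a threshold of 0.05. They measure the spread between livers. On simulated data for MCD against C before PH with all genes, 26% of changes of size 1 and 78% of size 2 (log2) were recovered. In that simulation a far smaller share of genes was changed than the 26.3% that passed in the real comparison. The cutoff after adjustment depends on that share, so the recovery need not hold for the real data.

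Arrays of 1 group correlated at 0.939 to 0.985. The number of arrays limits the precision. The members, gene lists and named genes were chosen with earlier results of these data known. Named were the members, 15 other iron genes, and per comparison the listed genes past the threshold, up to the 5 largest, and in a few places a further listed gene chosen after its values were seen. Pairing of replicate numbers, slide and brightness were checked, and alternatives covered background correction, scaling, the filter, the probe rule, the groups fitted and single arrays. Promoter sequences and coordinates of genes are from RefSeq on GRCm38.p6 and those of probes from the arrays on mm9. Of the genes most like Hamp in pattern, 1 is not reported here.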

Additional observations from a re-analysis of the deposited data

Results flagged for a closer look

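In 3 of 79 sets of 4 livers (a member in a group), 1 liver lay far from the other 3 for the probe of a member, by the ratio of its gap to the range of the group, which chance alone exceeds in about 1 in 20 sets, so that 3 is no excess. The Tfr2 level of C replicate 1 before PH was 6.78, the lowest of its group. The Slc40a1 level of C replicate 1 after PH was 4.82, the highest of its group. The Trf level of C+Fc-GLP-1 replicate 2 after PH was 9.35, the lowest of its group.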

How the results depend on the processing

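The number of the 10 members past the threshold changed with the processing, and the cause was not tested. For MCD against C before PH it was 4, and 2 with normexp and quantile normalization, with the authors' normalized values, without the filter on dim probes, with only the groups compared, with the replicate block and with array brightness as a covariate, 3 with median centring and 5 with the mean over probes (2 to 4 with 1 array left out). For M+Fc-GLP-1 against MCD before PH it was 1, and 0 with normexp and quantile normalization, median centring, the authors' values, only the groups compared, the replicate block and brightness, 2 with the mean over probes and 3 without the filter (0 to 1 with 1 array left out). For M+Fc-GLP-1 against C+Fc-GLP-1 before PH it was 1, and 0 with normexp and quantile normalization, median centring, the authors' values, no filter, the replicate block and brightness (0 to 1). For C+Fc-GLP-1 against C before PH it was 0, and 1 with normexp and quantile normalization and with the authors' values. For M+Fc-GLP-1 against C+Fc-GLP-1 after PH it was 1, and 0 without the filter (0 to 1). For C after against before PH it was 0, and 1 with only the groups compared and with the replicate block (0 to 1). For MCD over time it was 2, and 1 with median centring and without the filter (1 to 3), and for C+Fc-GLP-1 over time 0, and 1 with normexp and quantile normalization and with median centring (0 to 1). For the diet by Fc-GLP-1 interaction it was 0, and 1 with median centring and with the mean over probes (0 to 1). For MCD against C after PH it was 0 (0 to 1), and for M+Fc-GLP-1 against MCD after PH 3, and 2 with normexp and quantile normalization, the authors' values and brightness, each without Hamp, and 4 with the mean over probes (3 to 4). The direction of Slc40a1 in C+Fc-GLP-1 against C before PH turned from -0.03 to 0.27 with median centring and 0.10 with brightness (-0.26 to 0.27 with 1 array left out), and that of Hfe in M+Fc-GLP-1 against MCD before PH from -0.36 to 0.18 with normexp and quantile normalization and 0.20 with the authors' values.

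In no comparison did all 4 pairs of same-numbered livers deviate together with an r over 0.1 (range over the comparisons -0.19 to 0.51), so the replicate numbers were not taken to pair the samples. In M+Fc-GLP-1 against C+Fc-GLP-1 before PH 3 pairs did (r from 0.03 to 0.18), 3 livers correlated best with their own number, and the replicate block put the Tfrc difference at an adjusted p of 0.05, just short of the threshold. The block otherwise gave the counts above. Slide as a block gives no value of its own because each group lies on 1 slide. Median centring moved the median difference of all genes from -0.12 to 0.24 for MCD against C before PH. With brightness as a covariate the genes past the threshold went from 5606 to 2145 there, from 1534 to 93 for M+Fc-GLP-1 against MCD before PH and from 2948 to 363 for C over time. The authors' values were normalized separately for each time point and gave no comparison across time.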
